A study of Mus musculus with 12 samples.

Results

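The genes described here are 10 genes of the NRF2 antioxidant programme of the mouse liver: Nqo1, Gclc, Gclm, Hmox1, Txnrd1, Srxn1, Slc7a11, Nfe2l2, Keap1 and G6pdx. A gene was taken where a probe set of the array carried its symbol and no other, with the probe set of the highest mean signal used where there were several. This gave 9 of the 10 genes, out of 22180 genes measured. G6pdx, the glucose-6-phosphate dehydrogenase gene, had no probe set that met the rule and is not analysed here. Keap1 and Slc7a11 had 2 probe sets each, and the other 7 genes had 1.

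NRF2, encoded by Nfe2l2, is a transcription factor that KEAP1 holds in the cytoplasm and hands to the ubiquitin ligase of CUL3 for degradation. Oxidants and electrophiles modify cysteines of KEAP1, NRF2 then accumulates, pairs with a small MAF protein and binds antioxidant response elements near its targets. In hepatocytes these targets make glutathione, reduce quinones, degrade heme and recycle thioredoxin and peroxiredoxins. NRF2 itself is controlled mainly through the stability of its protein, which the arrays did not measure.

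Liver RNA came from 12 male mice of the C57BL/6 strain, each on its own array. The groups were Ahnak knockout (KO) mice on a high-fat diet (HFD, 60% fat), wild-type (WT) mice on the same HFD, KO mice on regular chow and WT mice on regular chow. Each group held 3 mice, the groups were weight-matched, and the diets were fed for 8 weeks. Ahnak encodes a very large scaffold protein. Which part of the gene the KO mice lack, in which cells, and how old the mice were is not stated in the sources at hand. The design text sets KO against WT on each diet. The diet comparisons and the interaction follow from the 4 groups.

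The values are log2 signals, so a difference of 1 is a 2-fold change of the signal. Array medians lay between 5.58 and 5.70, and with 3 arrays a group the precision is limited by their number. The single Ahnak probe set gave 6.46, 6.52 and 6.62 in KO HFD livers and 7.26, 7.06 and 6.74 in WT HFD livers. On chow it gave 6.38, 6.74 and 6.66 in KO livers and 6.50, 6.83 and 6.58 in WT livers, and it checks no label, since it may lie outside the deleted part. Of the hepatocyte markers 7 of 7 were measured, and albumin (Alb) stood at 14.05 to 14.16 on every array. Of the 7, 1 was called in KO against WT on HFD, Cps1, a urea cycle enzyme gene, which rose by 0.36 ± 0.07 (adjusted p = 0.00882). The WT HFD arrays stood apart from the other 9, with scores of 30 to 32.3 on the first principal component (32.2% of the variance) against -18.5 to -4. Both genes that rose in WT mice on HFD and all genes that fell in KO against WT on HFD rest in part on these 3 arrays, without which those comparisons cannot be made. In whole liver, fewer cells of a type and less RNA per cell cannot be told apart.

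Promoters of 8 of the 10 genes were in the table of RefSeq promoters (GRCm38.p6), 10 promoters in all, with none for Gclc and Hmox1. The 250 bases before each start were searched on both strands for 2 spellings of the antioxidant response element core, TGACNNNGC and TGAGNNNGC, and for the AP-1 site TGACTCA. A TGACNNNGC was found in 4 of the 10 promoters and in 10.2% of all 32851 mouse promoters of this length. A TGAGNNNGC was found in 2 of the 10 and in 14.4% of all. Either core was found in 6 of the 10 and in 23.0% of all promoters, and TGACTCA in 1 of the 10 and in 4.46% of all. Counted by gene, 6 of the 8 genes had either core, as had 6932 of all 27025 genes. Txnrd1 had several promoters, of which not all held a core. The genes with a core include G6pdx, whose signal is not analysed here. The 2 kinds of motif can share letters, and matches overlapped in 237 promoters of the genome. Below are the windows of the called genes with an entry (Nqo1 and Slc7a11) and of 2 uncalled genes (Gclm, the partner subunit of the called Gclc, and Srxn1). Each reads 5′ to 3′ towards the start, with matched letters in capitals.
Nqo1: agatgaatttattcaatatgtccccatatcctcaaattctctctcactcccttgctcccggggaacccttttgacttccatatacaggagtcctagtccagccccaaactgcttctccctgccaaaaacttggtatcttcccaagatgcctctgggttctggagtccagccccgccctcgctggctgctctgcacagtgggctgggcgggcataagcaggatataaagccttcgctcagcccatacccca
Slc7a11: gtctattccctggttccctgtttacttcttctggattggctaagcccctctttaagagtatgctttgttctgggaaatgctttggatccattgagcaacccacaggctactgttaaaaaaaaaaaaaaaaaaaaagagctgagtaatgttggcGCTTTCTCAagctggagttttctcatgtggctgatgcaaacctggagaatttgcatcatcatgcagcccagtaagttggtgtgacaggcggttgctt
Gclm: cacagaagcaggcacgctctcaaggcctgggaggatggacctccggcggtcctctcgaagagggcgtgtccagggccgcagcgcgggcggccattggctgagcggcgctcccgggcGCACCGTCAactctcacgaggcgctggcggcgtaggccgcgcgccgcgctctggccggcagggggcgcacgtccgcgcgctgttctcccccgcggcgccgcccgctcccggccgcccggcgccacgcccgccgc
Srxn1: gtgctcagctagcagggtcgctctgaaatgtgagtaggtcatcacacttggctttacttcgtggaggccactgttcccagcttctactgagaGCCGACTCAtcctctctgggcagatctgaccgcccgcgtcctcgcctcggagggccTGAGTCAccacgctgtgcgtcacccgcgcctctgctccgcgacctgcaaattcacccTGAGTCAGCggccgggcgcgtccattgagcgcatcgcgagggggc
The Nqo1 window (chr8:107403206-107403455, minus strand) held none of these letters. Counting back from the gene start at -1, the Slc7a11 window (chr3:50443614-50443863, minus strand) held 1 core at -97 to -89. The Gclm window (chr3:122245307-122245556, plus strand) held 1 core at -134 to -126. The Srxn1 window (chr2:152105274-152105523, plus strand) held 2 cores, at -158 to -150 and at -45 to -37, and 2 AP-1 sites, beginning at -102 and at -45, the second of which shares its letters with the core there. A match is a description of the letters and not a measured site, and a missing match says only that the letters are not in this window.

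On HFD, 4 of the 9 measured genes fell in KO against WT livers: Nqo1, Slc7a11, Hmox1 and Gclc. None rose, and Gclm, Txnrd1, Srxn1, Nfe2l2 and Keap1 did not pass. A gene was called at a limma adjusted p under 0.05, adjusted over all 22180 genes, and this comparison called 10.5% of all genes in either direction and 6.62% as lower. The median log2 difference of the 9 genes was -0.17, against 0.0011 for all genes. In 6 of the 9 genes every KO array lay below every WT array, and in 1 every KO array lay above. Over all genes the arrays were separated in this way for 15.6% as lower and for 13.0% as higher.

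On chow, 0 of the 9 genes passed in KO against WT with limma. Of these 9 genes 1 (Gclc, lower) had an unadjusted p under 0.05, and of all genes 0.00902% were called and 7.02% had an unadjusted p under 0.05. In 2 of the 9 genes (Gclc and Gclm) every KO array lay below every WT array, as in 7.29% of all genes. The median log2 difference of the 9 genes was -0.10, against -0.0034 for all genes. HFD against chow called 1 of the 9 in KO livers (Nqo1, lower, with 0.158% of all genes called lower) and 2 of the 9 in WT livers (Hmox1 and Slc7a11, higher, with 4.02% of all genes called higher). The interaction, which is KO minus WT on HFD less KO minus WT on chow, was called for Nqo1 alone, with 3.53% of all genes called. The comparisons share arrays, so their results are not independent of one another.

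**Figure D1:**
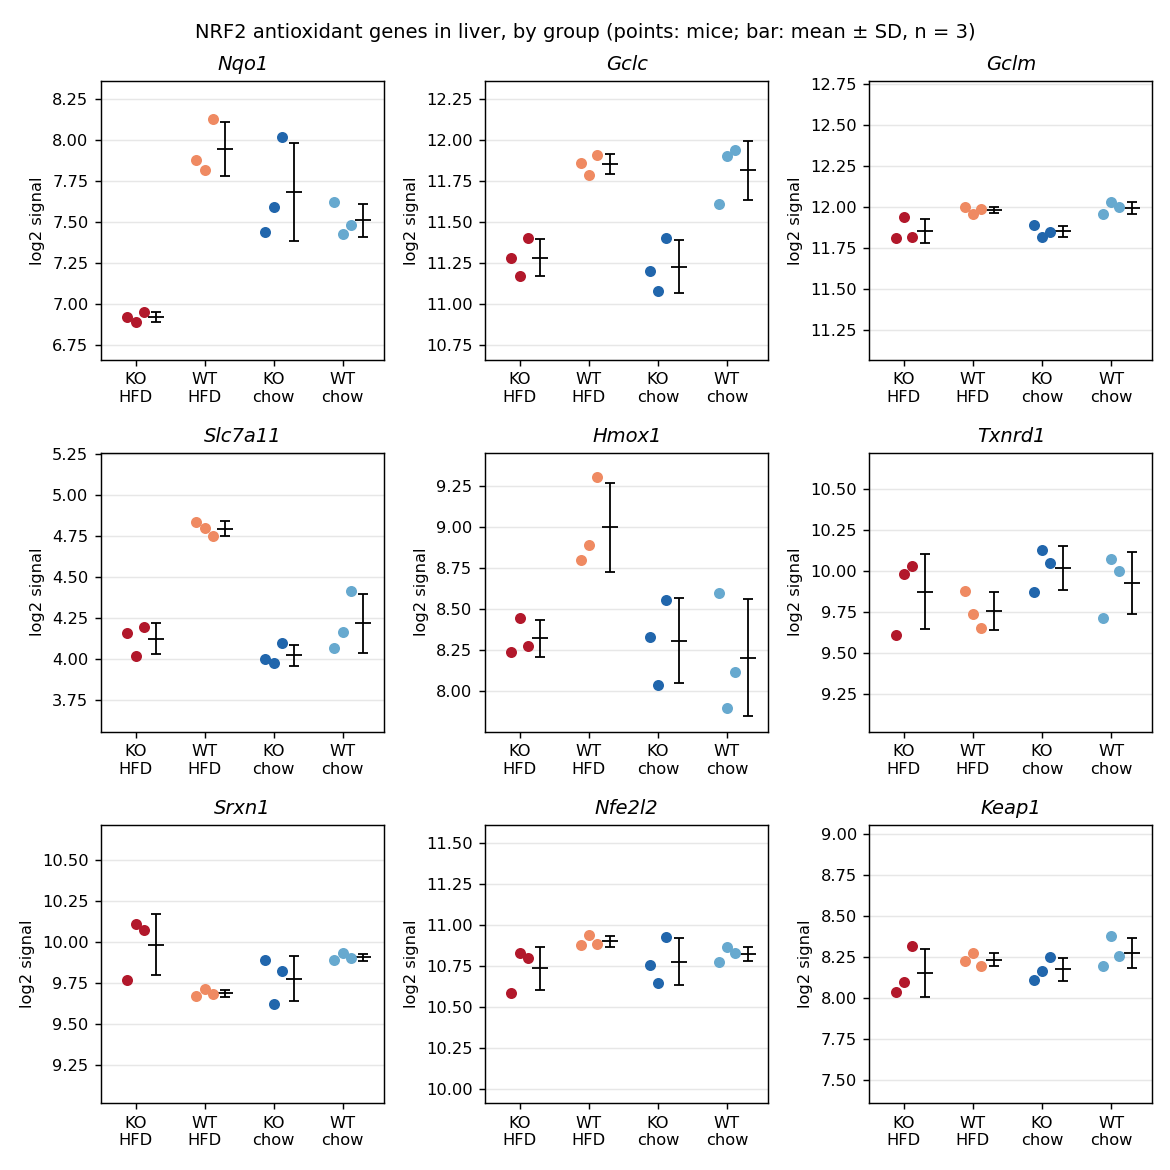
Log2 signal (vertical axis) of the 9 measured genes in KO HFD, WT HFD, KO chow and WT chow livers (horizontal axis); points are mice and bars the mean ± SD, n = 3. Nqo1 is lowest in the KO HFD mice at 6.89 to 6.95, Slc7a11 and Hmox1 are highest in the WT HFD mice, and every KO point of Gclc lies below every WT point.

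**Figure D2:**
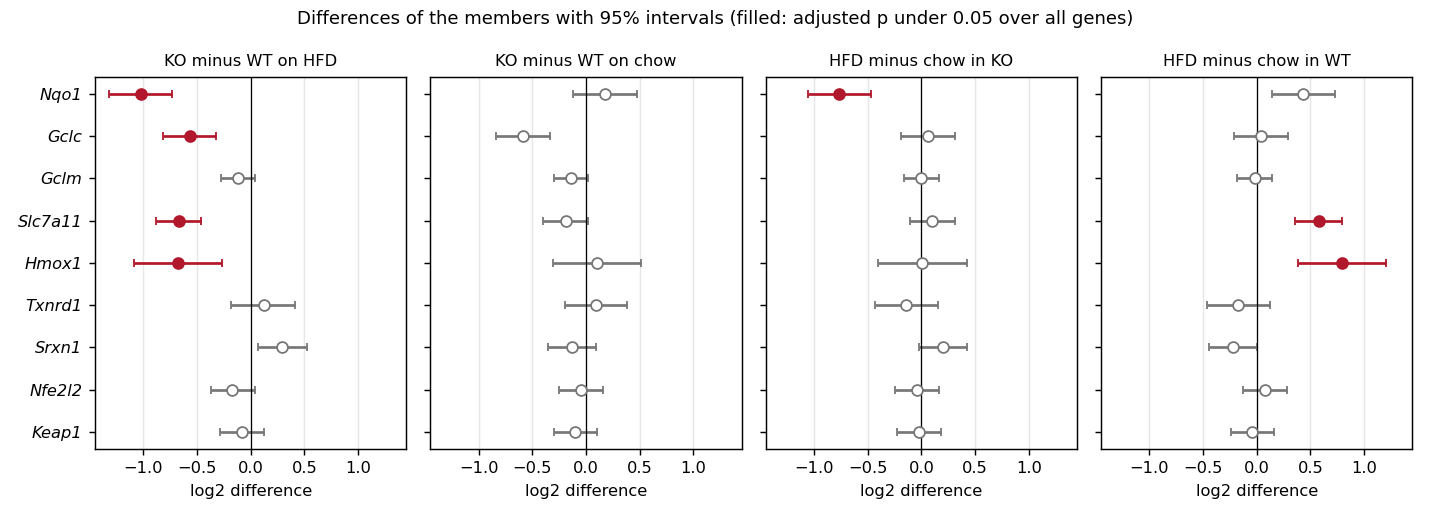
Log2 difference of each gene (horizontal axis, with its 95% interval) for KO minus WT on HFD, KO minus WT on chow, HFD minus chow in KO and HFD minus chow in WT; filled points were called. The filled points are 4, 0, 1 and 2 of the 9 genes, and the Gclc intervals for the 2 genotype comparisons lie at nearly the same place, around -0.57 and -0.59.

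The genes of the pathway's own sensor did not pass in any comparison. Nfe2l2, the NRF2 gene, stood at 10.59, 10.83 and 10.80 in KO HFD livers and at 10.88, 10.94 and 10.89 in WT HFD livers. In the chow-fed mice Nfe2l2 stood at 10.76, 10.65 and 10.93 in KO livers and at 10.78, 10.87 and 10.83 in WT livers. The KO HFD arrays lay just below the WT HFD arrays, and on chow the groups overlapped. The KO minus WT log2 difference of Nfe2l2 was -0.17 ± 0.09 (SE) on HFD, with a 95% interval of -0.37 to 0.04 and an adjusted p = 0.31. On chow it was -0.05 ± 0.09 (adjusted p = 0.945).

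Keap1, the gene of the adaptor that targets NRF2 for degradation, stood at 8.04, 8.10 and 8.32 in KO HFD livers and at 8.23, 8.28 and 8.20 in WT HFD livers. Chow-fed KO livers gave 8.11, 8.17 and 8.25 for Keap1, and chow-fed WT livers 8.20, 8.38 and 8.26. All 4 groups overlapped. The KO minus WT difference of Keap1 was -0.08 ± 0.09 on HFD (95% interval -0.29 to 0.12, adjusted p = 0.64) and -0.10 ± 0.09 on chow (adjusted p = 0.857). Its second probe set, with a mean of 5.91, gave 0.14 ± 0.12 on HFD (adjusted p = 0.519).

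Gclc encodes the catalytic subunit of glutamate-cysteine ligase, which carries out the limiting step of glutathione synthesis. It stood at 11.28, 11.17 and 11.40 in KO HFD livers and at 11.86, 11.79 and 11.91 in WT HFD livers. On chow the values were 11.20, 11.08 and 11.40 in KO livers and 11.61, 11.90 and 11.94 in WT livers. Every KO array lay below every WT array, within each diet and across both. Gclc fell in KO against WT on HFD by 0.57 ± 0.11 on the log2 scale (95% interval -0.82 to -0.32, adjusted p = 0.00722), so that the KO signal was 0.673 times the WT signal.

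On chow the Gclc difference was -0.59 ± 0.11 (95% interval -0.84 to -0.34, unadjusted p = 0.000225), 0.665 times the WT signal, and it did not pass (adjusted p = 0.184). It passed on chow with trend and robust settings of eBayes (adjusted p = 0.0333). The interaction of Gclc was 0.02 ± 0.16 (95% interval -0.33 to 0.37, adjusted p = 0.974). Averaged over both diets, a comparison chosen after the values were seen, Gclc fell in KO by 0.58 ± 0.08 (95% interval -0.76 to -0.41, adjusted p = 0.00215). In that average 3 of the 9 genes (Gclc, Slc7a11 and Nqo1) were called as lower, with 3.36% of all genes called lower. The Slc7a11 call there was lost with the mean of its probe sets, where the difference was -0.18 (adjusted p = 0.121). HFD minus chow of Gclc was 0.06 ± 0.11 in KO (adjusted p = 0.934) and 0.04 ± 0.11 in WT (adjusted p = 0.898).

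Gclm encodes the modifier subunit that pairs with the Gclc product. It stood at 11.81, 11.94 and 11.82 in KO HFD livers and at 12.00, 11.96 and 11.99 in WT HFD livers. The chow groups had 11.89, 11.82 and 11.85 in KO livers and 11.96, 12.03 and 12.00 in WT livers. As for Gclc, the KO arrays lay below the WT arrays on each diet, but by less. The Gclm difference was -0.12 ± 0.07 on HFD (95% interval -0.28 to 0.04, adjusted p = 0.343) and -0.14 ± 0.07 on chow (95% interval -0.30 to 0.02, adjusted p = 0.743), and neither passed. Averaged over both diets it was -0.13 ± 0.05 (adjusted p = 0.191), and it passed with trend and robust settings (adjusted p = 0.0451).

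Slc7a11 encodes the transport subunit of the cystine-glutamate exchanger, which brings in cystine for glutathione synthesis. It stood at 4.16, 4.02 and 4.20 in KO HFD livers and at 4.84, 4.80 and 4.75 in WT HFD livers. Livers of chow-fed mice gave 4.0, 3.98 and 4.10 in KO and 4.07, 4.17 and 4.42 in WT. The WT HFD arrays lay above all other 9 arrays. Slc7a11 fell in KO against WT on HFD by 0.67 ± 0.10 (95% interval -0.88 to -0.46, adjusted p = 0.00117). It rose in WT mice on HFD against chow by 0.58 ± 0.10 (95% interval 0.36 to 0.79, adjusted p = 0.0044).

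The other comparisons of Slc7a11 did not pass. KO minus WT on chow was -0.19 ± 0.10 (adjusted p = 0.745), HFD minus chow in KO was 0.10 ± 0.10 (adjusted p = 0.839), and the interaction was -0.48 ± 0.14 (adjusted p = 0.0876). The interaction was called with quantile normalization (adjusted p = 0.0432) and without WT chow 3 (adjusted p = 0.0412). These signals are dim: 15.4% of genes had a mean at or below that of Slc7a11, and Xist, which male cells do not express, gave 4.21 to 4.76 on the same arrays. Every KO value of Slc7a11 on either diet lay below that range, as did WT chow 1 and WT chow 2. The WT HFD values, at 4.75 to 4.84, lay near its upper end. No fold is given, and both the size of the difference and whether Slc7a11 was detected at all are uncertain. The second Slc7a11 probe set, with a mean of 2.71, showed -0.01 ± 0.11 for KO minus WT on HFD (adjusted p = 0.966) and 0.09 ± 0.11 for HFD minus chow in WT (adjusted p = 0.711). With the mean of both probe sets the KO minus WT difference on HFD was -0.34 (adjusted p = 0.0228). Slc3a2, the gene of the exchanger's second subunit, averaged 11.08 in KO HFD, 11.12 in WT HFD, 11.10 in KO chow and 11.17 in WT chow livers.

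Nqo1 encodes the NAD(P)H quinone reductase, a widely used marker of NRF2 activity. It stood at 6.92, 6.89 and 6.95 in KO HFD livers and at 7.88, 7.82 and 8.13 in WT HFD livers. On chow it stood at 7.44, 7.59 and 8.02 in KO livers and at 7.62, 7.43 and 7.48 in WT livers. The 3 KO HFD arrays lay below all other 9, and the chow groups overlapped. Nqo1 fell in KO against WT on HFD by 1.02 ± 0.14 (95% interval -1.32 to -0.73, adjusted p = 0.000672), 0.492 times the WT signal, and the call held with each of the 12 arrays left out.

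On chow the KO minus WT difference of Nqo1 was 0.18 ± 0.14 (95% interval -0.12 to 0.47, adjusted p = 0.836). The interaction of Nqo1 was -1.20 ± 0.19 (95% interval -1.62 to -0.78, adjusted p = 0.00623), and it was called without any 1 of the 12 arrays, with adjusted p values of up to 0.0199. No other member had a called interaction. Nqo1 also fell in KO mice on HFD against chow by 0.77 ± 0.14 (95% interval -1.06 to -0.47, adjusted p = 0.0462). That call held without KO chow 1 (adjusted p = 0.0237) but not without any 1 of the remaining 11 (adjusted p values of 0.0501 to 0.159), and not in the fit of only the arrays compared (adjusted p = 0.204).

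In WT mice HFD minus chow of Nqo1 was 0.43 ± 0.14 (95% interval 0.14 to 0.73), and it did not pass (adjusted p = 0.0803). Every WT HFD array lay above every WT chow array. The difference was called with trend and robust settings (adjusted p = 0.0474), among genes above the median signal (adjusted p = 0.036) and without KO chow 3 (adjusted p = 0.0268). Averaged over both diets the KO minus WT difference was -0.42 ± 0.10 (adjusted p = 0.0275). That average sums differences of opposite sign, and its call was lost without KO HFD 2, KO HFD 3, WT HFD 3, KO chow 1, KO chow 2, WT chow 1 or WT chow 3, with adjusted p values of up to 0.0711.

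**Figure D3:**
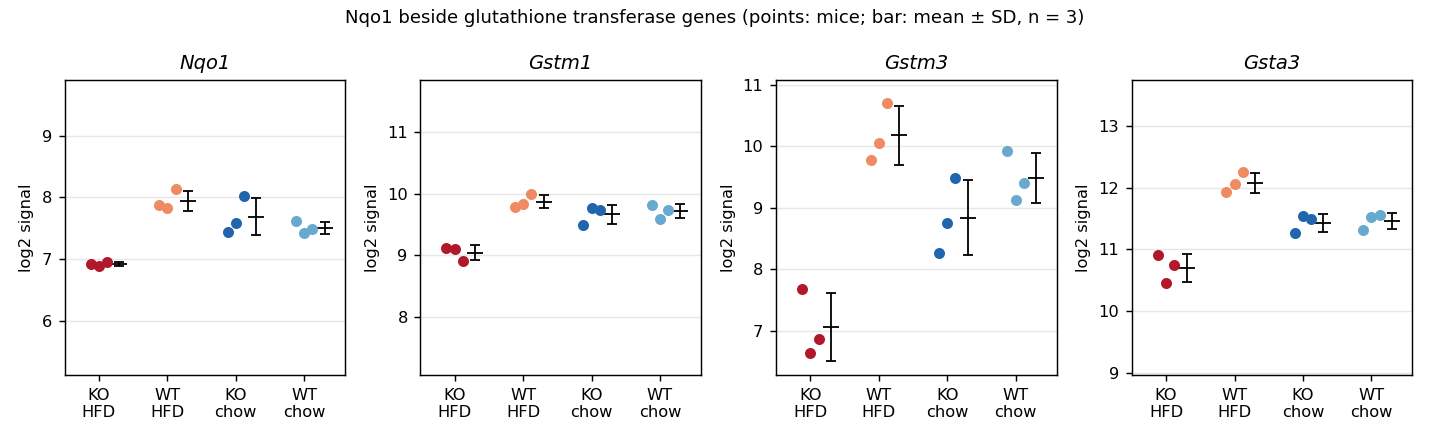
Log2 signal (vertical axis) of Nqo1 and of the glutathione transferase genes Gstm1, Gstm3 and Gsta3 in KO HFD, WT HFD, KO chow and WT chow livers; points are mice and bars the mean ± SD, n = 3. In each gene the KO HFD mice lie below all other mice, as for Nqo1 at 6.89 to 6.95.

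Hmox1 encodes heme oxygenase 1, which breaks heme down to biliverdin, iron and carbon monoxide, and which macrophages of the liver express strongly. It stood at 8.24, 8.45 and 8.28 in KO HFD livers and at 8.80, 8.89 and 9.31 in WT HFD livers. On chow it stood at 8.33, 8.04 and 8.56 in KO livers and at 8.60, 7.90 and 8.12 in WT livers. The WT HFD arrays were above all others, and the other 3 groups overlapped. Hmox1 fell in KO against WT on HFD by 0.68 ± 0.19 (95% interval -1.09 to -0.27, adjusted p = 0.0382), 0.624 times the WT signal.

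This Hmox1 call was lost without KO HFD 1 (adjusted p = 0.102), KO HFD 2 (0.0656), KO HFD 3 (0.097), WT HFD 2 (0.0676), WT HFD 3 (0.144) or KO chow 1 (0.0521), with differences of -0.78 to -0.53 over all arrays left out. Hmox1 rose in WT mice on HFD against chow by 0.79 ± 0.19 (95% interval 0.38 to 1.20, adjusted p = 0.0257). That call was lost without WT HFD 2 (adjusted p = 0.0565), WT HFD 3 (0.101), WT chow 2 (0.0819) or WT chow 3 (0.0883), and in the fit of only the arrays compared (0.0726). HFD minus chow in KO was 0.01 ± 0.19 (adjusted p = 0.994), KO minus WT on chow was 0.10 ± 0.19 (adjusted p = 0.94), and the interaction was -0.78 ± 0.27 (95% interval -1.36 to -0.20, adjusted p = 0.141), which did not pass.

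Most markers of recruited and lipid-associated macrophages moved with Hmox1. Of 8 measured on HFD, 5 fell in KO against WT (Ccr2, Gpnmb, Ly6c2, Mmp12 and Trem2), 0 rose and 3 did not pass. In 6 of the 8 every KO HFD array lay below every WT HFD array, and in 1 every KO array lay above. In this comparison 6.62% of all genes were called lower. The arrays were separated in this way for 15.6% of all genes as lower and 13.0% as higher. In WT mice on HFD against chow 6 were called higher and 1 lower (Cd9, -0.47, adjusted p = 0.0178). With 1 array left out these counts ran from 4 to 6 and from 0 to 1. Over all genes that comparison called 4.02% higher and 2.94% lower. The summed linear signal of the 8 ran from 618 to 679 in KO HFD livers and from 898 to 1216 in WT HFD livers. On chow it ran from 605 to 636 in KO livers and from 598 to 676 in WT livers, so the WT HFD mice were the group that stood out here too. Trem2, a receptor of lipid-associated macrophages, fell in KO on HFD by 0.79 and Gpnmb, a glycoprotein of the same cells, fell by 1.41.

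Markers of resident Kupffer cells and macrophages stood lower in 8 of 10 in KO against WT on HFD, with a median of -0.32 against 0.0011 for all genes, but none passed with limma. Of the 10, 3 (Adgre1, Cd5l and Lyz2) were lower at an unadjusted p under 0.05, a threshold that 23.8% of all genes passed in either direction. Adgre1, which encodes the macrophage protein F4/80, stood at -0.62 ± 0.20 (adjusted p = 0.066) with every KO HFD array below every WT HFD array, while Clec4f, a lectin of Kupffer cells, stood at 0.11 ± 0.13 (adjusted p = 0.666). The count called as lower was 1 without KO HFD 1, WT HFD 1 or WT chow 1, and 2 without WT chow 3 or among genes above the median signal. In WT mice on HFD against chow 10 of 10 were positive, with a median of 0.28 against 0.0033 for all genes, and 0 passed. Of the 10, 5 had an unadjusted p under 0.05, as had 20.6% of all genes in that comparison. The summed signal of the list ran from 7379 to 9408 in KO HFD livers and from 8332 to 11002 in WT HFD livers.

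Of the 8 markers of stellate cells and fibroblasts, 4 fell in KO against WT on HFD and 0 rose, where 6.62% of all genes were called lower. Their sums were 2145 to 2481 in KO HFD livers and 2800 to 3736 in WT HFD livers. Of the 7 endothelial markers 2 fell, Cdh5 by 0.36 ± 0.08 (adjusted p = 0.0111) and Lyve1 by 1.35 ± 0.37 (adjusted p = 0.0346), and 0 rose. The Lyve1 call was lost without KO HFD 1, KO HFD 2, KO HFD 3, WT HFD 1, WT HFD 2 or WT HFD 3, and with trend and robust settings of eBayes (adjusted p = 0.0762). The endothelial list was split, with 4 of 7 negative, 3 positive and a median of -0.04. In 1 of the 7 every KO HFD array lay above every WT HFD array, as in 13.0% of all genes. In 3 every KO HFD array lay below, as in 15.6% of all genes. The endothelial sums, which weigh bright genes most, did not overlap, at 7666 to 8192 in KO HFD livers and 9100 to 9279 in WT HFD livers. Of 6 lymphocyte markers 1 rose (Cd4, by 0.80, adjusted p = 0.0129) and 0 fell, where 3.89% of all genes were called higher. The Cd4 call was lost without WT HFD 3. None of the 5 cholangiocyte, 6 neutrophil and 4 adipocyte markers passed. Cholangiocyte sums were 522 to 558 in KO HFD and 452 to 486 in WT HFD livers, and neutrophil sums 118 to 122 and 142 to 160. None of the erythroid markers was measured under the rule for probe sets. The part of these cells in the differences of Hmox1 and of the dim Slc7a11 was not tested.

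**Figure D4:**
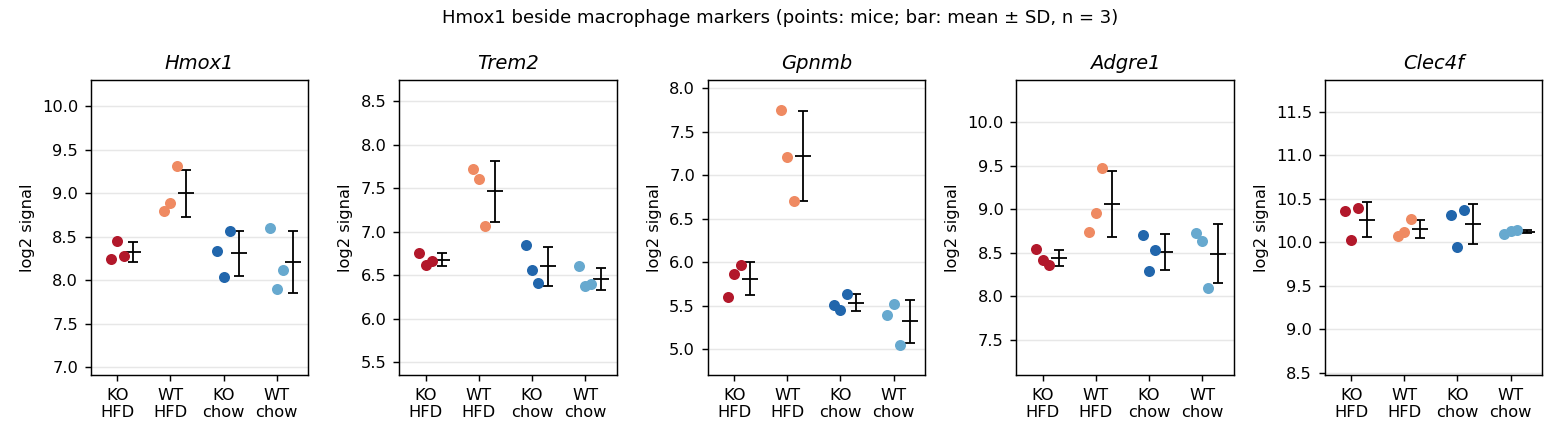
Log2 signal (vertical axis) of Hmox1, of the recruited macrophage markers Trem2 and Gpnmb and of the Kupffer cell and macrophage markers Adgre1 and Clec4f in KO HFD, WT HFD, KO chow and WT chow livers; points are mice and bars the mean ± SD, n = 3. Hmox1, Trem2, Gpnmb and Adgre1 have their highest means in the WT HFD mice, while the 4 groups of Clec4f overlap. Clec4f is 1 of 2 among the 10 Kupffer cell and macrophage markers that were not lower in KO against WT on HFD.

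Txnrd1 encodes the cytosolic thioredoxin reductase, which returns thioredoxin to its reduced form. It stood at 9.61, 9.98 and 10.03 in KO HFD livers and at 9.88, 9.74 and 9.65 in WT HFD livers. On chow the Txnrd1 signal was 9.87, 10.13 and 10.05 in KO livers, and in WT livers it ran from 9.71 to 10.07 with a mean of 9.93. All groups overlapped, and no comparison passed. The KO minus WT difference of Txnrd1 was 0.12 ± 0.13 on HFD (95% interval -0.18 to 0.41, adjusted p = 0.663) and 0.09 ± 0.13 on chow (95% interval -0.20 to 0.38, adjusted p = 0.925).

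Srxn1 encodes sulfiredoxin, which repairs over-oxidised peroxiredoxins. It stood at 9.77, 10.11 and 10.07 in KO HFD livers and at 9.67, 9.71 and 9.68 in WT HFD livers. On chow it stood at 9.89, 9.62 and 9.82 in KO livers and at 9.89, 9.93 and 9.90 in WT livers. Srxn1 was the member whose KO HFD arrays all lay above the WT HFD arrays. Its KO minus WT difference on HFD was 0.29 ± 0.10 (95% interval 0.07 to 0.52), and it did not pass (adjusted p = 0.0942). It was called as higher without KO HFD 1 (0.40, adjusted p = 0.023), with trend and robust settings (adjusted p = 0.0465) and among genes above the median signal (adjusted p = 0.0389).

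The remaining comparisons of Srxn1 did not pass. KO minus WT on chow was -0.13 ± 0.10 (adjusted p = 0.84), HFD minus chow was 0.20 ± 0.10 in KO (adjusted p = 0.63) and -0.22 ± 0.10 in WT (adjusted p = 0.249), and the interaction was 0.42 ± 0.14 (95% interval 0.11 to 0.74, adjusted p = 0.141). Without KO HFD 1 the interaction was 0.53 (adjusted p = 0.0485). The 4 genes called on HFD differed in the group that stood out. For Nqo1 it was the KO HFD mice, for Slc7a11 and Hmox1 the WT HFD mice, and for Gclc both KO groups lay below both WT groups.

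Beyond the 9 genes, NRF2 is known to raise many genes of conjugation and export. Of 22 measured other NRF2 targets of detoxification and transport (28 listed), 9 fell in KO against WT on HFD, 1 rose and 12 did not pass. Over all genes 6.62% were called lower and 3.89% higher. The median log2 difference of the 22 was -0.27, against 0.0011 for all genes. The genes that fell were 5 glutathione transferase genes (Gsta3, Gsta4, Gstm1, Gstm2 and Gstm3), the export pump gene Abcc3, the aldehyde oxidase gene Aox1, the carboxylesterase gene Ces1g and the cytochrome P450 gene Cyp2a5. Gsta3 fell by 1.38 ± 0.13 (adjusted p = 7.01e-05) and Gstm3 fell by 3.11 ± 0.35 (adjusted p = 0.000216). Gstp1, the pi-class transferase gene, rose by 0.60 ± 0.11 (adjusted p = 0.00414). Transferase genes of a class are near copies of one another, and the share of a signal that came from a copy was not tested.

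On chow, 0 of these 22 targets passed in KO against WT with limma, with 4 lower and 0 higher at an unadjusted p under 0.05. Of all genes 7.02% passed that threshold in either direction. HFD against chow called 3 as lower in KO livers (Cyp2a5, Gsta4 and Gstm1, against 0.158% of all genes) and 0 as higher. That count was 5 without KO HFD 1, 6 without KO chow 1, 1 with only the arrays compared and 7 among genes above the median signal. In WT livers HFD against chow called 2 as higher (Cyp2a5 and Gsta3) and 3 as lower (Cbr1, Gstp1 and Osgin1). It called 2 or 3 in all without WT HFD 1, WT HFD 2, WT HFD 3, WT chow 1 or WT chow 3. Over all genes 4.02% were called higher and 2.94% lower there. Cyp2a5 is also on the list of targets of the nuclear receptor CAR. That list also holds Nr1i3, the gene of CAR itself, which was not called. Of the 8 measured genes on it, 5 fell in KO against WT on HFD (6.62% of all genes did), with a median of -3.20. The part of CAR in the values of Nqo1 and the transferases was not tested.

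NADPH is the reductant used by NQO1 and by glutathione and thioredoxin reductases. Of 9 measured genes that supply it, 3 fell in KO against WT on HFD (6.62% of all genes did). Of the 9, 0 rose and 6 did not pass, with a median of -0.25. Among the 6, Nnt was uneven within groups, at 10.19, 9.39 and 10.30 in KO HFD livers. It gave 9.69, 10.48 and 10.46 in KO chow, 9.81, 10.75 and 10.78 in WT chow, and 10.76, 10.75 and 10.75 in WT HFD livers. The cause of this spread between mice of a group was not tested. Taldo1, a pentose phosphate enzyme, fell by 0.58 ± 0.08 (adjusted p = 0.000586), and Me1, malic enzyme 1, fell by 0.98 ± 0.21 (adjusted p = 0.0117). Pgd, 6-phosphogluconate dehydrogenase, fell by 0.48 ± 0.12 (adjusted p = 0.0215), and its call was lost without KO HFD 3, WT HFD 2 or WT HFD 3. In WT mice Pgd and Taldo1 rose on HFD against chow by 0.51 ± 0.12 and 0.58 ± 0.08. The Pgd call there was lost without WT HFD 2, WT HFD 3, WT chow 2 or WT chow 3.

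Genes of glutathione synthesis, recycling and use went both ways. Of 10 measured, 2 rose in KO against WT on HFD, 1 fell and 7 did not pass, and among genes above the median signal 3 rose and 3 fell. Glrx, glutaredoxin, rose by 0.71 ± 0.10 (adjusted p = 0.000868) and Oplah, which opens 5-oxoproline to glutamate, by 0.54 ± 0.08 (adjusted p = 0.00148). Chac1, which degrades glutathione, fell by 1.13 ± 0.17 (adjusted p = 0.00154). In WT mice on HFD against chow these genes were called in the opposite direction, with Chac1 higher by 1.46 ± 0.17, Glrx lower at -0.57 ± 0.10 and Oplah lower at -0.59 ± 0.08, a comparison that shares the WT HFD arrays. Chac1 is also a target of the stress factor ATF4, as is Slc7a11, and of 13 ATF4 targets 4 fell in KO against WT on HFD (Chac1, Ddit3, Ddit4 and Vldlr) and 1 rose (Atf5). The list was split, with a median of -0.03, 5 positive and 8 negative. In 4 of the 13 every KO HFD array lay above every WT HFD array, and in 5 below. Of all genes 13.0% were separated as higher and 15.6% as lower, with 3.89% called higher and 6.62% called lower. Asns, which was not called there, averaged 8.38 in KO HFD and 6.52 in WT HFD livers. The part of ATF4 in the values of Slc7a11 was not tested.

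Of 10 measured thioredoxin and peroxiredoxin genes, 2 fell in KO against WT on HFD. Txnrd3 fell by 0.45 ± 0.11 (adjusted p = 0.0261) and Prdx3 fell by 0.31 ± 0.08 (adjusted p = 0.0301). Each call was lost without at least 4 of the 6 HFD arrays, and without KO HFD 2, WT HFD 1, WT HFD 2 or WT HFD 3 both were lost. Of 16 relatives, partners and regulators of NRF2, 1 was called lower, where 6.62% of all genes were called lower. The median of the 16 was 0.05, with 10 positive and 6 negative. The called gene was Bach2, a repressor of the same elements, which fell by 0.50 ± 0.13 (adjusted p = 0.0324). Its call was lost without KO HFD 2, KO HFD 3, WT HFD 2 or WT HFD 3. Sqstm1, whose product p62 binds KEAP1, stood at 0.24 ± 0.09 (adjusted p = 0.128) and Cul3 at 0.09 ± 0.10 (adjusted p = 0.627). None of the 4 superoxide dismutase and catalase genes passed, and none had an unadjusted p under 0.05.

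Of 11 heme and iron genes measured beside Hmox1, 2 fell in KO against WT on HFD (6.62% of all genes did) and 0 rose. Slc40a1, the iron exporter ferroportin, fell by 0.64 ± 0.11 (adjusted p = 0.0025) and Hamp2, a hepcidin gene, fell by 4.59 ± 0.33 (adjusted p = 7.52e-06). Hamp, the other hepcidin gene of the list, was not called, with means of 13.29 in KO HFD and 13.46 in WT HFD livers. On chow none of these lists had a called gene in KO against WT with limma. At an unadjusted p under 0.05, which 7.02% of all genes passed, the chow comparison held 1 of 10 glutathione genes, as lower. Of 10 thioredoxin and peroxiredoxin genes it held 3, and of 16 regulators 2, all lower. The 9 NADPH genes and the 13 ATF4 targets each had 1 higher and 1 lower. Of the 8 genes of the CAR list 1 was higher. None of the 4 dismutase and catalase genes and none of the 11 heme and iron genes passed.

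**Figure D5:**
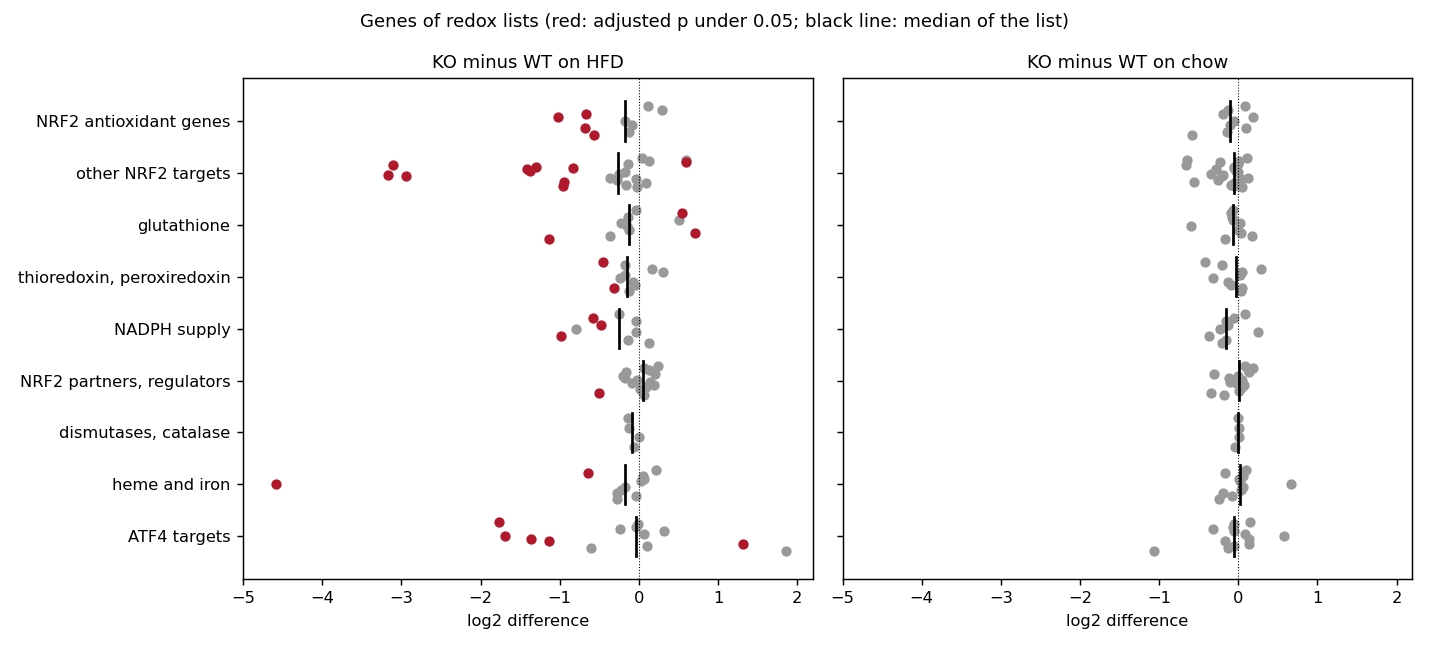
Log2 difference KO minus WT (horizontal axis) on HFD and on chow for the genes of 9 lists (vertical axis), with the 9 genes described here in the top row; red points were called and the black line is the median of a list. Called genes are seen on HFD in 8 of the 9 lists, mostly to the left of 0, and none on chow.

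The genes whose pattern over the 12 arrays was most like that of each called member were found by the root mean square difference of log2 signals, each centred on its own mean, over 18664 genes. For Nqo1, with a spread of 0.403 around its own mean, they were Gstm1 at 0.163, Afm (the plasma vitamin E carrier afamin) at 0.179 and Mbl2 (a mannose-binding lectin) at 0.186. Gstm1 averaged 9.04 in KO HFD, 9.87 in WT HFD, 9.67 in KO chow and 9.72 in WT chow livers, lowest in the same group as Nqo1. For Gclc, with a spread of 0.313, they were Lipt1 (a lipoyltransferase) at 0.123, Aox3 (an aldehyde oxidase) at 0.127 and Arsa (a lysosomal sulfatase) at 0.137. Aox3 averaged 11.42 in KO HFD, 12.18 in WT HFD, 11.40 in KO chow and 11.96 in WT chow livers.

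For Hmox1, with a spread of 0.383, the nearest genes were Clec12a (a lectin of myeloid cells) at 0.130, Smc2 (a condensin subunit) at 0.157 and Bub1 (a mitotic checkpoint kinase) at 0.161. Clec12a averaged 7.61 in KO HFD, 8.31 in WT HFD, 7.67 in KO chow and 7.54 in WT chow livers, highest in the same group as Hmox1. For Slc7a11, with a spread of 0.311, they were Pnkd at 0.088, Atg4a (an autophagy protease) at 0.094 and Ubtd1 at 0.094. Pnkd averaged 9.98 in KO HFD, 10.56 in WT HFD, 9.91 in KO chow and 10.10 in WT chow livers, highest in the same group as Slc7a11.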

How the data were processed

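Livers of 12 mice in 4 groups were measured on 12 arrays. The authors deposited 1 table of log2 signals, with 41345 probe sets, and the submitters' processing notes name oligo as its tool. Its version and method are not stated in the sources at hand. These log2 values ran from 1.40 to 14.36 with 0 missing and were used as deposited, without a filter on dim genes.

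Symbols came from the array annotation, with 23521 probe sets carrying 1 symbol (23328 matched by gene number to RefSeq names of GRCm38.p6, 193 not), 1814 several and 16010 none. Probe sets without a single symbol (17824) were not used. Of the 22180 genes, 1082 had over 1 probe set.

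One model over all 4 groups was fitted by lmFit and eBayes of limma 3.58.1 (R 4.3.3), with Benjamini-Hochberg adjustment over all genes within each of 6 comparisons. The average over both diets was added after values had been seen. Errors are SE for differences and SD for levels. The code was tested on simulated data. The members, the gene lists and the 3 most similar genes per called member follow rules written with earlier results of these data known. The text names up to 4 genes per list and comparison by the smallest p, besides examples of a list's count. Alternatives were a replicate block, trend and robust eBayes, array weights, quantile normalization, median centring, the mean of a gene's probe sets, every probe set, genes above the median signal, only the arrays compared, and each array left out.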

Additional observations from a re-analysis of the deposited data

Results flagged for a closer look

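The genotype difference of Nqo1 differed between the diets by a test of the difference itself. KO minus WT was -1.02 ± 0.14 (log2 difference ± SE) on HFD, with the KO mice lower in every pairing of arrays, and 0.18 ± 0.14 on chow, where the groups overlapped. The interaction was -1.20 ± 0.19 (limma adjusted p = 0.00623). None of the other 8 genes had a called interaction.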

How the results depend on the processing

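Over 1110 fits of 54 gene results (9 genes in 6 comparisons), 1027 kept direction and side of the threshold, 32 lost a call, 11 gained one and 40 turned sign, all 40 in 16 results that were not called. The number of called genes in KO against WT on HFD was 4, and 3 to 4 with an array left out. It was 5 with trend and robust settings (Srxn1 added, as higher). Without KO HFD 1 the 4 held Srxn1, as higher, in place of Hmox1. Among genes above the median signal they held Srxn1, as higher, in place of the dim Slc7a11. On chow the number was 0, and 1 with trend and robust settings (Gclc). For HFD against chow in KO livers it was 1, and 0 with only the arrays compared, 0 with the replicate block (Nqo1, adjusted p = 0.0515), and 0 to 1 with an array left out. In WT livers it was 2, and 3 with trend and robust settings (Nqo1 added), 1 with only the arrays compared and 1 to 3 with an array left out. For the interaction it was 1, and 2 with quantile normalization (Slc7a11 added) and 1 to 2 with an array left out. Replicate numbers were not taken as pairing the mice: the deviations of 18 same-numbered pairs correlated at -0.064 to 0.08, with 0 over 0.1. The block moved the number of all genes called to 0 on chow, against 2 without it. Trend and robust settings called 18 genes on chow, against 2, and 124 for HFD against chow in KO, against 54. Genes above the median signal gave 19 and 124, and only the arrays compared gave 0 and 21. For the interaction, trend and robust settings called 1201 genes and genes above the median signal 1394, against 783, and for the average over both diets genes above the median signal gave 1611, against 1067. With 1 array left out, the genes called numbered 1506 to 2326 for KO against WT on HFD (2331 with all arrays), 0 to 5 on chow, 28 to 79 for HFD against chow in KO, 815 to 1691 in WT (1543), 645 to 1045 for the average and 432 to 718 for the interaction. The cause of these shifts was not tested. Slc7a11 lies near the dim end of the arrays, which limits its values. The results that turned sign lay near 0. With an array left out, KO minus WT on chow ran from -0.05 to 0.30 for Hmox1, from -0.02 to 0.16 for Txnrd1 and from -0.12 to 0.02 for Nfe2l2. HFD minus chow in KO ran from -0.01 to 0.14 for Gclc, -0.04 to 0.03 for Gclm, -0.12 to 0.13 for Hmox1, -0.11 to 0.03 for Nfe2l2 and -0.11 to 0.03 for Keap1, and in WT from -0.07 to 0.10 for Gclc and -0.08 to 0.01 for Keap1. The interaction ran from -0.05 to 0.12 for Gclc, -0.02 to 0.04 for Gclm, -0.05 to 0.16 for Txnrd1 and -0.06 to 0.07 for Keap1. The mean of all probe sets turned Keap1 to 0.03 for KO minus WT on HFD and to 0.03 for HFD minus chow in KO. Median centring turned HFD minus chow in KO to -0.03 for Gclm and -0.02 for Hmox1. Quantile normalization turned Gclm to 0.02 for HFD minus chow in WT, and the interaction to -0.02 for Gclc and -0.02 for Gclm.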
